A study of Mus musculus with 20 samples.

Results

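The genes described here are 34 genes of fibroblasts, extracellular matrix and the YAP transcription programme, out of 55260 genes with a transcript in the deposited table. They were chosen on measured values of these same libraries, from earlier results for the treatments, so their differences between treatment pools are given as a description. RNA was sequenced from 4 leukocyte populations sorted from MC38-OVA tumours, a mouse colon carcinoma line that expresses ovalbumin, grown in C57BL/6 mice. The populations were CD8 T cells and CD11c+CD11b+, CD11c+CD11b- and CD11c-CD11b+ myeloid cells. The integrin CD11c marks dendritic cells and a part of the macrophages, and the integrin CD11b marks monocytes, macrophages and granulocytes. The 5 treatments were untreated, radiotherapy alone (RT, 8 Gy on day 12), RT with 400 µg of an antibody against SIRPa on days 12, 14 and 16, RT with 250 µg of an antibody against PD-1 on days 12 and 15, and all 3 together. CD47 on target cells engages SIRPa on myeloid cells, and PD-1 restrains activated T cells. All tumours were harvested on day 17, 5 days after RT. Each library came from leukocytes pooled over 10 tumours, 1 per mouse, and 1 such pool gave all 4 populations of its treatment. The labels name no second pool, so the p-values below measure the spread between these pools and populations only. With 1 pool per treatment, the treatment and the pool cannot be told apart, and the 4 libraries of a pool are not independent. In such bulk libraries fewer cells of a type and less RNA per cell cannot be told apart.

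YAP (Yap1) and its relative TAZ (Wwtr1) are transcription coactivators that bind TEAD proteins on DNA. The Hippo kinases hold them in the cytoplasm, and stretch and a stiff matrix favour their entry into the nucleus. Fibroblasts of tumours secrete collagens, fibronectin, periostin and proteoglycans and, once activated, often express contractile proteins such as smooth muscle actin. Macrophages also make some matrix proteins, among them fibronectin and thrombospondin-1. The question asked of each gene was whether its level followed the treatment pool or the sorted population.

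Libraries held 21.5 to 35.7 M counts. Levels are CPM, counts scaled to equal library totals, after TMM normalisation, which corrects the totals for composition. The untreated CD8 T library stood apart. The library labelled untreated CD8 T held 48.8 CPM of Cd8a against 749 to 1185 in the other CD8 T libraries, and 9 CD8 T markers summed to 213 CPM against 3013 to 4702. Macrophage genes were high in it, with C1qa at 1929 CPM against 120.0 to 295 in the other 4, and 10 macrophage markers summed to 17828 CPM. Itgam, which encodes CD11b, was at 1748 CPM there against 156 to 289. In the myeloid libraries both sort marker genes matched the labels. Itgam was at 765 to 1894 CPM in the CD11b+ fractions and 59.4 to 118 in the CD11c+CD11b- fraction. Itgax, which encodes CD11c, was at 265 to 410 CPM in the CD11c+ fractions and 71.7 to 125 in CD11c-CD11b+ cells. Sums of cell type markers were less uniform. In CD11c+CD11b- cells 8 conventional dendritic cell markers summed to 124 CPM untreated and 383 to 1143 irradiated. There, 5 NK markers summed to 796 CPM untreated and 814 to 1077 irradiated, and the 9 CD8 T markers to 241 and 357 to 438. The 10 macrophage markers summed to 1130 to 2555 CPM in the irradiated CD8 T libraries. The main counts and shares over all libraries are also given without the library labelled untreated CD8 T or over the 15 myeloid libraries. The contrasts of irradiated with untreated CD8 T cells cannot be made without that library.

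Of the 34 genes, 27 reached 10 CPM in at least 2 libraries. The other 7 stayed low: Ctgf reached 6.04 CPM, Lum 7.18, Loxl1 7.81, Loxl2 9.41, Tagln 3.67, Acta2 8.52 and Myl9 0.787. These include a YAP target (Ctgf), 1 proteoglycan, 2 matrix cross-linking enzymes and 3 of the 4 contractile genes. Per kilobase of transcript, the mean level over 20 libraries was highest for Fn1 at 379 CPM per kb, then Thbs1 at 327, Sparc at 93.9, Dcn at 74.9, Cyr61 at 53 and Cav1 at 46. Acta2, at 1.33 CPM per kb, was 28th of the 34.

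Promoter sequences were searched because most of these genes moved together across pools. RefSeq windows on GRCm38.p6, from 250 bases before to 50 after a start site, were found for 20 of the 34 genes. The TEAD motif GGAATG, on either strand (CATTCC), was in 7 of the 25 windows of these genes and in 14.7% of all 32851 windows; the 7 belong to 6 genes (Acta2, Ankrd1, Cald1, Cyr61, Wwtr1 and Yap1). A CArG box, the serum response factor motif, was in 1 of the 25 windows, that of Myl9, and in 1.6% of all windows (either strand; the motifs can overlap by their GG or CC ends). A match describes these letters only. The 250 bases before the start are shown, 5′ to 3′ with the TEAD motif in capitals, for the 4 genes with a match whose RefSeq start lies within 5 bases of the gene's start in GENCODE M21. They comprise both coactivators, a secreted target and a contractile gene.
Yap1: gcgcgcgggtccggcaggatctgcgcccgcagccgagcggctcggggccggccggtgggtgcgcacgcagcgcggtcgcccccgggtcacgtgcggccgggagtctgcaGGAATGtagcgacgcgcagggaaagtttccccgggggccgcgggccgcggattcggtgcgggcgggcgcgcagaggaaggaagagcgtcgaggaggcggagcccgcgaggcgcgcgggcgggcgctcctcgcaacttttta
Wwtr1: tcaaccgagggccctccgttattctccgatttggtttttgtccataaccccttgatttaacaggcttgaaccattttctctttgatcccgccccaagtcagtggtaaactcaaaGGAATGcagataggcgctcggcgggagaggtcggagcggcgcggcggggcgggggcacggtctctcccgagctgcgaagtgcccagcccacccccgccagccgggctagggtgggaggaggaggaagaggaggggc
Cyr61: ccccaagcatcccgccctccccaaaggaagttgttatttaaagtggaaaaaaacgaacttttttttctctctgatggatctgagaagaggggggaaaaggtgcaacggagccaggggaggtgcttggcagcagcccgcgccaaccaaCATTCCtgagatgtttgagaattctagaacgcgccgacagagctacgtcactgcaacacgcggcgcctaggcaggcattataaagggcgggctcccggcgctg
Cald1: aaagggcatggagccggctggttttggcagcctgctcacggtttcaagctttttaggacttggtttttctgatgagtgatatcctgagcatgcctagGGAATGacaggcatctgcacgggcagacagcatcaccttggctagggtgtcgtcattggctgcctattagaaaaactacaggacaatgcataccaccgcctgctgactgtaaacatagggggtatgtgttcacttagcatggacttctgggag
The Yap1 stretch lies at chr9:8004597-8004846, minus strand, with the motif beginning 141 bases before the start. The Wwtr1 stretch lies at chr3:57575911-57576160, minus strand, with the motif 136 bases before. The Cyr61 stretch lies at chr3:145649986-145650235, minus strand, with the motif 103 bases before. The Cald1 stretch lies at chr6:34598254-34598503, plus strand, with the motif 153 bases before.

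The main question was whether levels followed the pool or the population. The variance of log2 CPM over the 20 libraries was split into shares for pool, population and the rest. Pool had the larger share in 25 of the 34 genes, against 31.9% of all 21607 genes tested. The median shares were 60.7% for pool and 31.1% for population in the 34 genes, and 16.9% and 42.6% over all genes. With the 15 myeloid libraries only, the count was 26 of 34, against 45.1% of all genes. Without the untreated pool it was lower: among the 16 irradiated libraries pool had the larger share in 14 of 34, against 18.4% of all genes, and the medians were 42.3% and 51.2%. In edgeR's quasi-likelihood test the pool term was called in 28 of the 34 genes (13.4% of all genes tested) and in 27 without the library labelled untreated CD8 T (20.4% of all genes tested). The population term was called in 32 of the 34 (55.6% of all genes tested). Without that library it was called in 30, a count given without the share of all genes. The pool counts rest on values that chose the genes and are not evidence about them.

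**Figure D1:**
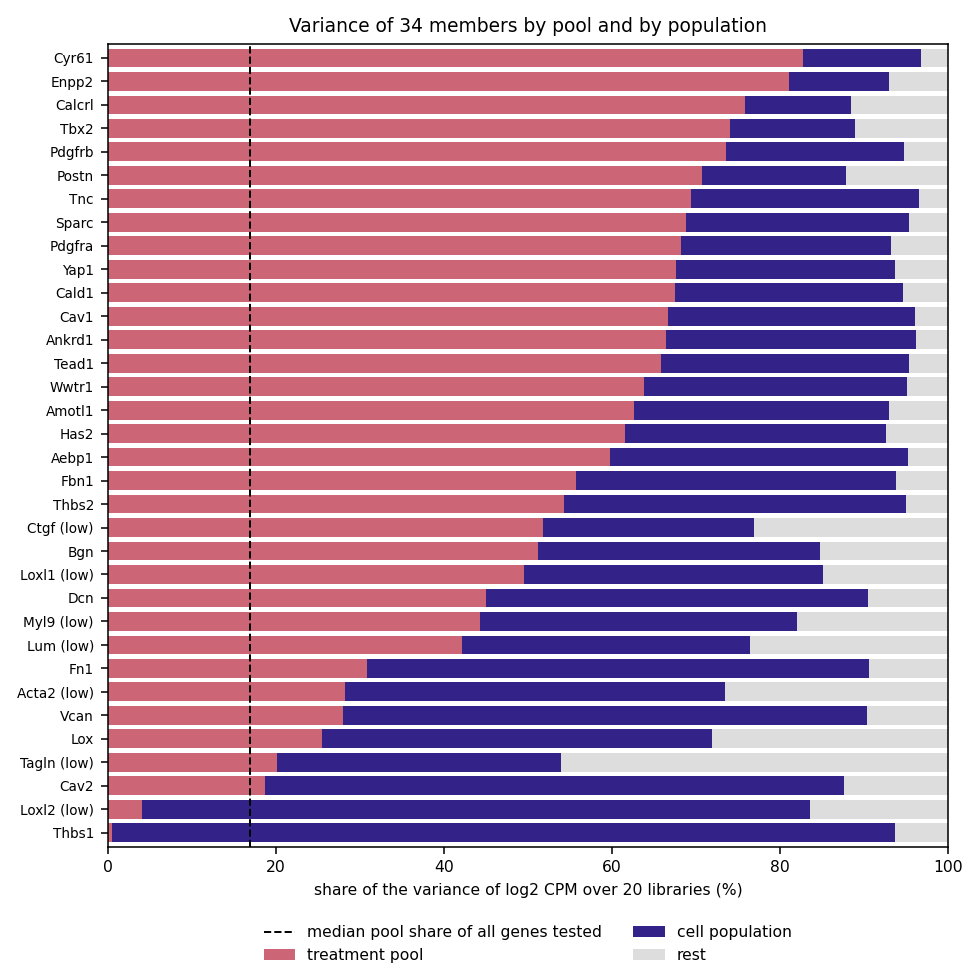
Share of the variance of log2 CPM over 20 libraries (x axis, percent) that lies between treatment pools, between cell populations and in the rest, for each of the 34 genes; "low" marks the 7 genes under 10 CPM and the dashed line is the median pool share of all genes tested. Cyr61 heads the list with 82.7% between pools, and Thbs1 ends it with 0.49%.

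The usual order of the pools was untreated highest, then RT with anti-SIRPa, RT alone, RT with both antibodies, and RT with anti-PD-1 lowest. Exactly this order was seen in 19 of the 27 genes in CD8 T cells, 20 in CD11c+CD11b+, 21 in CD11c+CD11b- and 17 in CD11c-CD11b+ cells. The untreated pool was highest in 25, 24, 26 and 25 of the 27, in the same order of populations. RT with anti-PD-1 was lowest in 23, 22, 23 and 18. Relative to RT alone, the untreated level of the 27 genes was 1.90-fold at the median in CD8 T cells, 2.12-fold in CD11c+CD11b+, 3.69-fold in CD11c+CD11b- and 1.97-fold in CD11c-CD11b+ cells. The CD8 T figures that involve the untreated pool rest on the library labelled untreated CD8 T, which held macrophage transcripts. RT with anti-SIRPa stood at a median of 1.22, 1.36, 1.51 and 1.36 times RT alone, and RT with anti-PD-1 at 0.413, 0.584, 0.413 and 0.675 times.

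**Figure D2:**
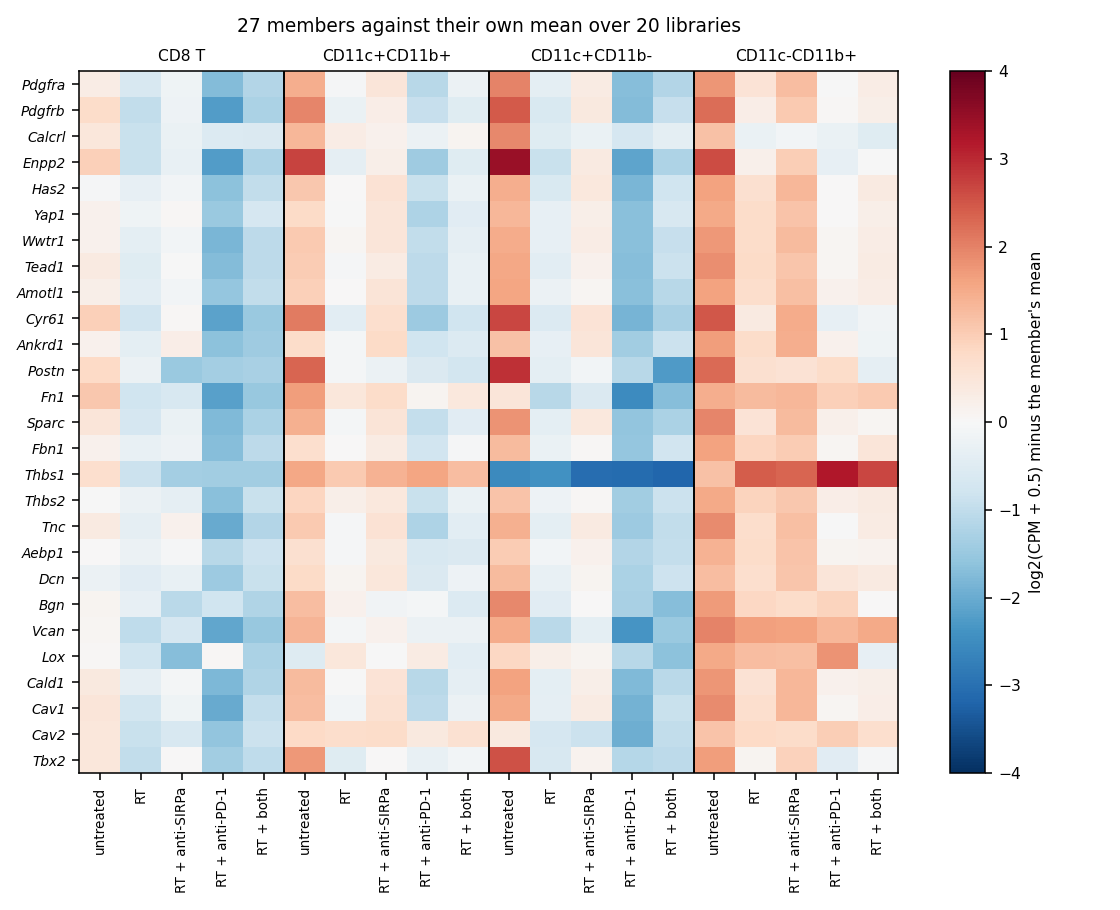
Level of the 27 genes that reached 10 CPM in 2 libraries (rows) in the 20 libraries (columns, 5 pools within each of 4 populations), as log2(CPM + 0.5) minus the gene's own mean; red is above and blue below that mean. In each population the untreated column is the reddest for most genes and RT with anti-PD-1 the bluest, while the Thbs1 row changes with the population.

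Among receptors and signal-making enzymes, all 5 genes had the larger share of variance between pools, with a median of 73.6% (84.1% over the 15 myeloid libraries). Among the 16 irradiated libraries Enpp2, Pdgfra and Has2 kept it. Pdgfrb (46.5% for pool against 47.7% for population) and Calcrl (13.8% against 66.8%) did not. Enpp2 encodes autotaxin, the secreted enzyme that makes lysophosphatidic acid. Every list of 5 values starts at the untreated pool, goes on to RT alone, then to the anti-SIRPa pool and the anti-PD-1 pool, and ends at the pool with both antibodies. Where 4 untreated values and 4 irradiated ranges are given, they follow the order CD8 T, CD11c+CD11b+, CD11c+CD11b- and CD11c-CD11b+. Enpp2 stood at 86.3, 23.8, 35.9, 9.16 and 18.7 CPM in CD8 T cells and at 296, 35.1, 52.5, 16.5 and 32.2 in CD11c+CD11b+ cells. It stood at 498, 24, 57.8, 9.91 and 18.6 CPM in CD11c+CD11b- cells and at 273, 51.5, 89, 35.5 and 44.6 in CD11c-CD11b+ cells. The untreated library was above the 4 irradiated ones in every population, by 20.7 times RT alone in CD11c+CD11b- cells, 8.43 times in CD11c+CD11b+, 5.29 times in CD11c-CD11b+ and 3.63 times in CD8 T cells. Pdgfra is a receptor for platelet-derived growth factors and a common fibroblast marker. Pdgfra stood at 119.9, 61.9, 85.5, 28.7 and 42.6 CPM in CD8 T cells and at 267, 92.9, 135, 44.5 and 83 in CD11c+CD11b+ cells. It stood at 386, 74.6, 122, 29.3 and 42.9 CPM in CD11c+CD11b- cells and at 332, 143, 231, 96 and 118 in CD11c-CD11b+ cells. In all 4 populations the untreated library was the highest and RT with anti-PD-1 the lowest. Pdgfrb stood at 22.2, 53.3, 75 and 63.7 CPM untreated and at 2.43 to 11.4, 6.7 to 16.2, 3.65 to 17.5 and 13.8 to 28.2 irradiated. Pdgfrb, the sister receptor of pericytes and fibroblasts, had its untreated value above all irradiated ones in each population. Calcrl stood at 19.7, 36.5, 56 and 33 CPM untreated and at 7.49 to 11.8, 12.3 to 17.6, 8.79 to 11.8 and 10.2 to 13.4 irradiated. Calcrl, the receptor shared by calcitonin gene-related peptide and adrenomedullin, differed little among the irradiated pools: without the untreated pool its pool share fell from 75.9% to 13.8%. Has2 stood at 20.9, 46, 59.4 and 67 CPM untreated and at 6.51 to 19.9, 11.5 to 32.5, 5.75 to 29 and 21.7 to 54.1 irradiated. Has2 makes hyaluronan, and its untreated library was the highest in all 4 populations, by the widest margin in CD11c+CD11b- cells.

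All 4 YAP regulators had the larger share between pools, with a median pool share of 64.9% (71.0% over the myeloid libraries). Yap1 stood at 30.6, 23.8, 27.7, 9.16 and 16.7 CPM in CD8 T cells and at 45.9, 26.7, 37.5, 11.1 and 19.4 in CD11c+CD11b+ cells. It stood at 68.6, 21.3, 31.4, 8.06 and 17 CPM in CD11c+CD11b- cells and at 77.4, 45.1, 59.5, 27.4 and 31.5 in CD11c-CD11b+ cells. In each population the untreated library was highest and RT with anti-PD-1 lowest. Wwtr1 stood at 69.9, 127, 172 and 208 CPM untreated and at 17 to 57.1, 30.7 to 87.2, 19 to 76.4 and 65.9 to 151 irradiated. Tead1 stood at 92.8, 146, 212 and 265 CPM untreated and at 21.2 to 71.6, 34.2 to 90.1, 21.9 to 81.3 and 75.6 to 157 irradiated. Tead1 encodes a DNA-binding partner of YAP and TAZ. Amotl1 stood at 28.9, 47.3, 72.9 and 75.6 CPM untreated and at 8.05 to 22.2, 11.6 to 35, 7.34 to 25.9 and 27.1 to 56.6 irradiated. Amotl1 encodes an angiomotin-family protein of cell junctions that binds YAP. Among the 16 irradiated libraries, pool kept the larger share for Yap1 (59.7% against 37.1%), Wwtr1 (51.9% against 45.5%) and Tead1 (49.8% against 47.6%), and Amotl1 had 48% against 49%.

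Of the 3 YAP targets, Cyr61 had the largest pool share of the 34 genes, at 82.7%. Over the 15 myeloid libraries its share was 89.1%, next to 89.3% for Enpp2. Cyr61 (also named Ccn1) encodes a secreted matricellular protein. Cyr61 stood at 129.6, 38.5, 68.6, 14.5 and 23.2 CPM in CD8 T cells and at 284, 49.2, 106, 23.9 and 37.7 in CD11c+CD11b+ cells. It stood at 424, 44.9, 97.7, 17.7 and 26.5 CPM in CD11c+CD11b- cells and at 374, 84.6, 185, 52.1 and 59.8 in CD11c-CD11b+ cells. The untreated library was 3.37, 5.77, 9.44 and 4.42 times RT alone, in the order CD8 T, CD11c+CD11b+, CD11c+CD11b- and CD11c-CD11b+. RT with anti-SIRPa was 1.78 to 2.19 times RT alone, and RT with anti-PD-1 0.377 to 0.616 times. Ankrd1 stood at 27.5, 18.7, 29.2, 7.55 and 8.76 CPM in CD8 T cells and at 41, 23.1, 41.5, 13.9 and 16.5 in CD11c+CD11b+ cells. It stood at 55.5, 19.4, 34.8, 9.05 and 13.3 CPM in CD11c+CD11b- cells and at 78.8, 41.4, 67.7, 27.8 and 21.9 in CD11c-CD11b+ cells. Ankrd1, a nuclear ankyrin-repeat protein of muscle and stretched cells, stood slightly higher with RT and anti-SIRPa than untreated in CD8 T and CD11c+CD11b+ cells, and lower in the other 2 populations. Ctgf (also named Ccn2), the closest relative of Cyr61 in the list, lay between 0.661 and 6.04 CPM, with 15 to 184 counts a library. Its highest library, untreated CD11c+CD11b-, was the highest for Cyr61 too.

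**Figure D3:**
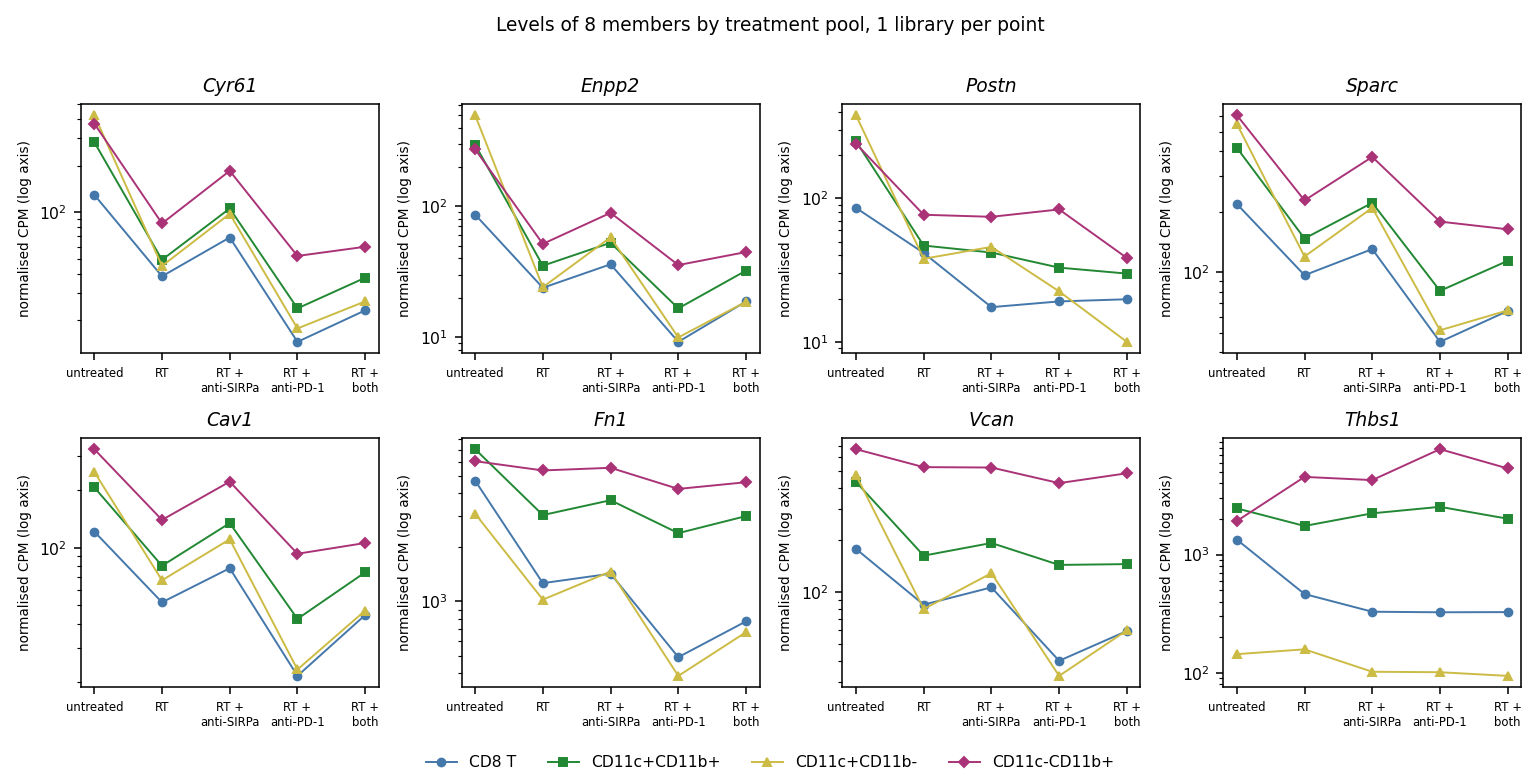
Normalised CPM (y axis, logarithmic) of 8 genes in the 5 treatment pools (x axis), 1 point per library, with a line and colour for each population. Cyr61, Enpp2 and Cav1 keep 1 order of pools in all 4 populations, Sparc in 3 of them (in CD11c-CD11b+ cells RT with anti-PD-1, at 178 CPM, lies above RT with both, at 163), Fn1 and Vcan stay high in CD11c-CD11b+ cells, and Thbs1 in those cells goes from 1922 CPM untreated to 4270.0 to 7801 CPM in the irradiated pools.

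Of the 8 matrix glycoproteins, 6 had the larger share between pools and 2, Fn1 and Thbs1, between populations, over all libraries and over the myeloid ones alike. Sparc, a collagen-binding matricellular protein, had the values of a pool-following gene. Sparc stood at 218, 96.5, 130.1, 45 and 64.1 CPM in CD8 T cells and at 416, 147, 221, 80.6 and 114 in CD11c+CD11b+ cells. It stood at 546, 119.5, 209, 51.4 and 64.5 CPM in CD11c+CD11b- cells and at 603, 227, 374, 178 and 163 in CD11c-CD11b+ cells. The untreated library was above all irradiated ones in each population. Postn encodes periostin, made by activated fibroblasts. Postn stood at 85.8, 41.6, 17.5, 19.1 and 19.8 CPM in CD8 T cells and at 249.6, 46.9, 41.9, 32.9 and 29.9 in CD11c+CD11b+ cells. It stood at 379.7, 37.9, 45.9, 22.5 and 10.0 CPM in CD11c+CD11b- cells and at 240.2, 76.8, 74.3, 83.7 and 38.4 in CD11c-CD11b+ cells. Unlike Cyr61, it stood lower in RT with anti-SIRPa than in RT alone in CD8 T (0.419 times), CD11c+CD11b+ (0.894 times) or CD11c-CD11b+ cells (0.968 times). Tnc stood at 101, 164, 210.0 and 291 CPM untreated and at 19.3 to 88.4, 33.1 to 118, 28.4 to 102 and 77.7 to 181 irradiated. Tnc encodes tenascin-C. Fbn1 stood at 309, 438, 673 and 839 CPM untreated and at 85.3 to 241, 164 to 349, 95.1 to 288 and 293 to 562 irradiated. Fbn1 encodes the microfibril protein fibrillin-1, and its RT with anti-SIRPa library was the highest irradiated one in each population. Thbs2 stood at 142, 260.4, 315 and 408 CPM untreated and at 43.9 to 121, 76 to 191, 54.6 to 147 and 171 to 302 irradiated. Aebp1 stood at 33.6, 52.2, 67.8 and 89.3 CPM untreated and at 15.1 to 32.2, 21.3 to 43.8, 14.5 to 37.7 and 35.8 to 74.4 irradiated. Aebp1 encodes a collagen-binding secreted protein, and Thbs2 a thrombospondin of fibroblasts; the untreated library was the highest for both in all 4 populations.

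Fn1 (fibronectin; chromosome 1, 71585520 to 71653200, minus strand, GRCm38) had the highest mean level per kilobase of the 34 genes. Fn1 stood at 4704, 1265, 1428, 489.7 and 775 CPM in CD8 T cells and at 7039, 3026, 3659, 2400.2 and 2986 in CD11c+CD11b+ cells. It stood at 3081, 1024, 1468, 385 and 675 CPM in CD11c+CD11b- cells and at 6036, 5358, 5544, 4230.2 and 4608 in CD11c-CD11b+ cells. In CD11c-CD11b+ cells the untreated library was 1.13 times RT alone, and in CD8 T cells 3.72 times; the library labelled untreated CD8 T is the one with macrophage transcripts. Its population share was 59.7%, 68.3% over the myeloid libraries, and 83.9% among the irradiated libraries. Of its 17 annotated transcripts, Fn1-201, coding 2477 residues, took a median of 55.6% of the gene's counts in CD11c+CD11b- cells and 35.6 to 37.8% in the other 3 populations. Fn1-203, coding 2296 residues, took a median of 6.8% in CD11c+CD11b- cells and 29.6 to 47.8% in the others. The shares of the populations overlapped: Fn1-203 ran from 6.0 to 34.2% in CD11c+CD11b- cells and from 16.5 to 57.3% over the other libraries. Such shares depend on how the authors' counting assigned reads shared by overlapping transcripts.

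Thbs1 (thrombospondin-1; chromosome 2, 118111876 to 118127133, plus strand, GRCm38) followed the population almost alone, with 93.2% of its variance between populations (96.4% over the myeloid libraries). Thbs1 stood at 1339.9, 464, 328, 325 and 326 CPM in CD8 T cells and at 2462, 1748, 2235, 2536 and 2012 in CD11c+CD11b+ cells. It stood at 144, 158, 102, 101 and 94.1 CPM in CD11c+CD11b- cells and at 1922, 4544, 4270.0, 7801 and 5359.7 in CD11c-CD11b+ cells. The CD11c+CD11b- libraries were the lowest of every pool. In CD11c-CD11b+ cells the 4 irradiated libraries were all above the untreated one, in CD8 T cells all were below it, and in the other 2 populations they lay on both sides. The untreated CD8 T value is from the library with macrophage transcripts, and its part in the CD8 T difference was not tested. CD11c-CD11b+ cells held 13.4 times the CD11c+CD11b- level untreated and 28.8, 41.9, 77.2 and 57 times in the irradiated pools.

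Proteoglycans were divided. Vcan encodes versican, a large chondroitin sulphate proteoglycan also made by monocytes. Vcan stood at 178, 84.5, 106, 40.0 and 59.5 CPM in CD8 T cells and at 433, 162, 192, 143 and 145 in CD11c+CD11b+ cells. It stood at 475, 79.6, 128, 32.7 and 60.0 CPM in CD11c+CD11b- cells and at 669.6, 527, 524, 426 and 486 in CD11c-CD11b+ cells. In CD11c-CD11b+ cells its irradiated values lay within 426 to 527 CPM, while the CD11c+CD11b- values ran from 32.7 to 475 over the 5 pools. Vcan-203, coding 3354 residues, took a median of 57.2 to 69.9% of its counts in the 4 populations, and Vcan-206, coding 2394 residues, 28.7 to 38.2%. Dcn stood at 98, 197, 275 and 271 CPM untreated and at 41.7 to 93.2, 76.7 to 158, 47 to 123 and 146 to 247 irradiated. Dcn encodes decorin, a small collagen-binding proteoglycan, and its shares were level at 45.0% for pool and 45.4% for population, while over the myeloid libraries they were 57.6% and 30.9%. Bgn encodes biglycan, a close relative. Bgn stood at 25.1, 18.4, 10.9, 13.4 and 9.91 CPM in CD8 T cells and at 55.8, 26.4, 21.4, 22.2 and 15.8 in CD11c+CD11b+ cells. It stood at 89.7, 16.9, 23.4, 9.31 and 6.83 CPM in CD11c+CD11b- cells and at 77, 41.9, 39.5, 44.1 and 23.5 in CD11c-CD11b+ cells. As for Postn, RT with anti-SIRPa was below RT alone in 3 of the 4 populations. Lum, encoding lumican, lay between 0.655 and 7.18 CPM and was highest in untreated CD11c+CD11b- cells.

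Of the 3 lysyl oxidases, which cross-link collagen and elastin, only Lox reached 10 CPM in 2 libraries. Lox stood at 6.27, 3.31, 1.52, 6.39 and 2.25 CPM in CD8 T cells and at 4.15, 8.47, 6.02, 7.78 and 4.47 in CD11c+CD11b+ cells. It stood at 11.2, 7.31, 6.65, 2.57 and 1.62 CPM in CD11c+CD11b- cells and at 18.5, 15, 14.8, 22.6 and 4.75 in CD11c-CD11b+ cells. Its highest library was the CD11c-CD11b+ one of RT with anti-PD-1, and in CD11c+CD11b+ cells the untreated library was the lowest. Loxl1 ran from 0.963 to 7.81 CPM and Loxl2 from 2.77 to 9.41; Loxl2 followed the population, with a pool share of 4.14%.

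The contractile genes were low except Cald1. Cald1 stood at 118, 215, 272 and 304 CPM untreated and at 25.5 to 83.7, 41.1 to 131, 25.6 to 106 and 101 to 223 irradiated. Caldesmon, its product, also occurs outside muscle in a form that binds actin stress fibres. Acta2 (smooth muscle actin) lay at or below 8.52 CPM and Tagln between 1.52 and 3.67 CPM. Myl9 had 0 counts in 7 libraries and Acta2 in 1 (CD11c+CD11b-, RT with anti-PD-1); a count of 0 allows up to 0.107 to 0.139 CPM in those libraries, at a floor of 3 counts and for counting error only. The caveola coat genes differed. Cav1 stood at 121, 51.9, 78.2, 21.4 and 44.5 CPM in CD8 T cells and at 207, 80.5, 134, 42.5 and 74.4 in CD11c+CD11b+ cells. It stood at 249, 67.6, 111, 23.1 and 47 CPM in CD11c+CD11b- cells and at 327, 139.7, 221, 93 and 106 in CD11c-CD11b+ cells. Cav2 stood at 29.9, 11.5, 13.6, 6.93 and 11.8 CPM in CD8 T cells and at 37.8, 35.6, 36.4, 28.4 and 33.5 in CD11c+CD11b+ cells. It stood at 28.4, 13.4, 11.7, 5.23 and 10.8 CPM in CD11c+CD11b- cells and at 48.2, 38.1, 36.4, 43.7 and 35.1 in CD11c-CD11b+ cells. Cav1 followed the pool (66.7%) and Cav2, its neighbour on chromosome 6, the population (68.8%), with higher levels in both CD11b+ myeloid populations in the irradiated pools. The transcription repressor Tbx2 was low but changed with the pool. Tbx2 stood at 4.02, 10.5, 19 and 10.1 CPM untreated and at 0.77 to 2.83, 1.85 to 2.83, 0.987 to 3.18 and 1.94 to 5.72 irradiated. The untreated library was the highest in all 4 populations.

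Population differences were tested within pools, with the pool as a term. In the 15 myeloid libraries, CD11c-CD11b+ cells exceeded CD11c+CD11b+ cells for 20 of the 34 genes (9.14% of all genes tested), with a median log2 difference of 0.75 against 0.01 for all genes. Vcan differed by 1.48 ± 0.33 (edgeR adjusted p = 0.0107), Thbs1 by 1.05 ± 0.29 (edgeR adjusted p = 0.0251), Tnc by 0.82 ± 0.13 (edgeR adjusted p = 0.00202) and Yap1 by 0.83 ± 0.16 (edgeR adjusted p = 0.0062), as log2 differences with their SE. None of the 34 was lower (9.95% of all genes); none had an unadjusted p below 0.05 in that direction, and DESeq2 called none either. Without the RT pool 7 were called, without RT with anti-SIRPa 9, and without RT with both antibodies 13. The shares of all genes in these refits are not given. Thbs1 missed the threshold without any 1 of the irradiated pools, and Vcan without RT, RT with anti-SIRPa or RT with both; Tnc and Yap1 passed in each case.

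CD11c+CD11b- cells were below CD11c-CD11b+ cells for 29 of the 34 genes (25.7% of all genes tested), with a median log2 difference of -1.05. Thbs1 differed by -5.29 ± 0.34 (edgeR adjusted p = 3.15e-07), Vcan by -2.38 ± 0.35 (edgeR adjusted p = 0.000161), Fn1 by -2.31 ± 0.27 (edgeR adjusted p = 2.9e-05) and Cav2 by -1.70 ± 0.25 (edgeR adjusted p = 0.000142). No gene was higher (25.1% of all genes), and none by unadjusted p below 0.05 or by DESeq2. Calcrl did not differ detectably over the 5 pools together, at 0.00 ± 0.17, but its single pools lay on both sides. Its ratio, CD11c-CD11b+ over CD11c+CD11b-, was 0.589 untreated and 1.172 with RT alone. It was 1.135 with anti-SIRPa, 1.357 with anti-PD-1 and 0.946 with both.

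Against CD11c+CD11b+ cells, the CD11c+CD11b- cells were lower for 4 genes (21.7% of all genes tested) and higher for none (22.8% of all genes; none by unadjusted p below 0.05 or by DESeq2). The 4 were Thbs1 (-4.23 ± 0.32 log2, edgeR adjusted p = 7.85e-07), Fn1 (-1.75 ± 0.26, edgeR adjusted p = 0.000183), Cav2 (-1.47 ± 0.24, edgeR adjusted p = 0.000385) and Vcan (-0.91 ± 0.33, edgeR adjusted p = 0.0448). Vcan missed the threshold without any 1 of the irradiated pools. Without the untreated pool 23 genes were lower, a count given without the share of all genes in that refit. In the untreated pool the median ratio of the 27 genes, CD11c+CD11b- over CD11c+CD11b+, was 1.39, and in the irradiated pools it was 0.780 with RT, 0.861 with anti-SIRPa, 0.617 with anti-PD-1 and 0.609 with both. By these median ratios the untreated pool ran the other way.

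**Figure D4:**
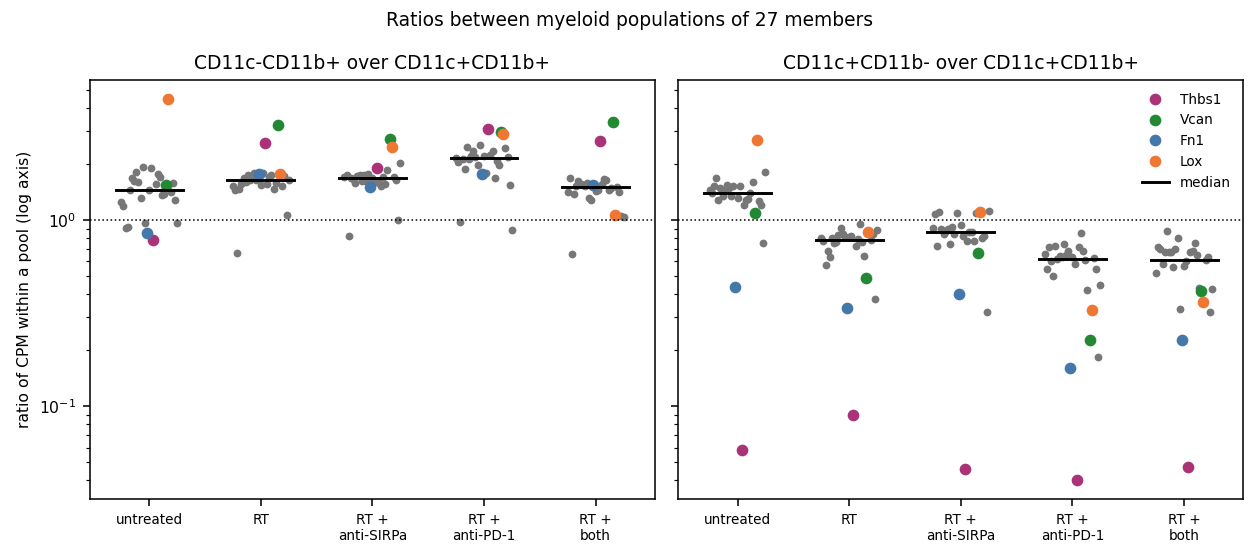
Ratio of CPM between 2 myeloid populations within a pool (y axis, logarithmic) for each of the 27 genes, by treatment pool (x axis), with 4 genes coloured and the median as a bar. The right panel moves from a median of 1.39 untreated to 0.609 to 0.861 after RT, and Thbs1 lies at 0.090 or less in all 5 pools.

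CD8 T cells were below the mean of the 3 myeloid populations for 31 of the 34 genes (15.5% of all genes tested), with a median log2 difference of -0.92, and above it for none (18.2% of all genes; none by unadjusted p below 0.05 or by DESeq2). Vcan differed by -1.45 ± 0.27 on the log2 scale (edgeR adjusted p = 0.000967) and Cav1 by -0.93 ± 0.14 (edgeR adjusted p = 0.000209). Without the library labelled untreated CD8 T the count was 30, given without the share of all genes in that refit. CD8 T cells were not at 0: Fn1, for example, ran from 489.7 to 4704 CPM in them, and to 1428 without the untreated library.

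The treatment contrasts chose these genes, so their counts are a description. Irradiated libraries were below the untreated one for 7 of 33 genes tested in CD8 T cells (12.5% of all genes tested), 2 of 34 in CD11c+CD11b+ (0.0857%), 1 of 34 in CD11c+CD11b- (0.0143%) and 0 of 34 in CD11c-CD11b+ cells (0%). They were Calcrl, Cav2, Enpp2, Fn1, Loxl1, Postn and Thbs1 in CD8 T cells, Postn and Vcan in CD11c+CD11b+ cells and Calcrl in CD11c+CD11b- cells. By unadjusted p below 0.05 these were 13, 21, 28 and 20 genes, and DESeq2 called 11, 10, 23 and 8. Each contrast set 4 libraries against 1 and had 3 residual degrees of freedom. The counts by unadjusted p, by DESeq2 and with a pool left out are given without the share over all genes. That share can change with the setting, so these counts are not results about these genes. Leaving out RT with anti-SIRPa raised the counts to 14, 20, 27 and 22, the last with 21 lower and 1 higher. Leaving out RT alone gave 0 in CD11c+CD11b+ and CD11c+CD11b- cells, as did leaving out RT with both; leaving out RT with anti-PD-1 gave 0 in CD11c+CD11b- cells. In CD8 T cells the count was 11 without RT with anti-PD-1 and 3 without RT with both, and all 7 rest on the library labelled untreated CD8 T, without which there is no contrast. The median log2 differences of the genes were -1.04, -1.19, -2.03 and -0.96, against 0.07, 0.02, 0.04 and 0.02 for all genes.

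Within the irradiated pools, libraries with anti-PD-1 were lower for 20 of 33 genes in CD8 T cells (4.28% of all genes tested), 19 of 33 in CD11c+CD11b+ (4.74%), 22 of 33 in CD11c+CD11b- (2.89%) and 0 of 34 in CD11c-CD11b+ cells (0%). In CD11c-CD11b+ cells 19 had an unadjusted p below 0.05 and DESeq2 called 16 lower. Over all genes, in either direction, that unadjusted p was below 0.05 for 2944 of 19468. Libraries with anti-SIRPa were higher for 0 of 33 genes in CD8 T cells (0.0905%), 2 of 33 in CD11c+CD11b+ (0.125%), 0 of 33 in CD11c+CD11b- (0.00523%) and 0 of 34 in CD11c-CD11b+ cells (0%). The 2 were Cav1 and Tnc. By unadjusted p below 0.05 these were 20, 17, 19 and 8 genes, and DESeq2 called 3, 8, 13 and 0. Over all genes, in either direction, the unadjusted counts were 1835 of 18784, 2189 of 19191, 2358 of 19130 and 848 of 19468. The DESeq2 counts for both antibodies are given without the share over all genes and are not results about these genes. These tests set 2 libraries against 2 and had 1 residual degree of freedom. Without a filter on low counts, every anti-PD-1 and anti-SIRPa count was 0.

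Other genes of the same pathways came from lists chosen with earlier results known. Against 13.4% of all genes tested, the pool term was called in 9 of 10 collagens, 15 of 20 further fibroblast and matrix genes, 11 of 18 Hippo kinases and regulators, 10 of 18 further YAP targets, 6 of 11 smooth muscle and pericyte genes, 5 of 15 TGF-beta genes and 5 of 18 ligands and partners of the receptors above. Without the library labelled untreated CD8 T, and against 20.4% of all genes, these counts were 9, 15, 12, 12, 6, 5 and 5, in the same order. The pool term has no direction, so genes called in it need not move alike. The Hippo kinase Stk4, called in it and picked out after its values were seen, was higher in most irradiated libraries. Stk4 stood at 168, 158, 166 and 110 CPM untreated and at 231 to 312, 157 to 222, 247 to 370 and 128 to 167 irradiated. Among the Hippo genes at 10 CPM or more in 2 libraries, Tead2 (TEAD family), Amotl2 (angiomotin family) and Ptpn14 (a YAP-binding phosphatase) differed most between pools. In CD11c-CD11b+ cells Tead2 stood at 76.4, 31.8, 47.8, 21.7 and 20.9 CPM over the 5 pools. The kinase Lats2, picked out after its values were seen, had a pool share of 2.08%, at 70.9, 87.1, 80.6, 89 and 88.3 CPM. Of the further YAP targets at that level, Igfbp3, Rbms3 and Arhgef17 differed most between pools. Below that level, Tead3 (at most 11.6 CPM) and Tgfb2 (at most 6.59 CPM) had pool shares of 72.3% and 66.9%. Arhgef17 stood at 79.1, 33.2, 52, 20.1 and 22.9 CPM in those cells. Tgfb3, a TGF-beta ligand, had a pool share of 74.2% with 153, 38.5, 63.5, 33 and 32.2 CPM. Cd44, a hyaluronan receptor of leukocytes also picked out after its values were seen, had 1.21% between pools and 90.5% between populations.

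The 10 collagens summed to 3946, 1423, 2041, 677 and 973 CPM in CD8 T cells and to 11058, 3123, 5601, 2432 and 2354 in CD11c-CD11b+ cells. Their order over pools was the usual one in 3 populations; in CD11c-CD11b+ cells RT with anti-PD-1 was above RT with both. Set against the summed collagens, many of the 27 genes varied little. Sparc ran over a 13.4-fold range of CPM, while its ratio to the collagens ran from 4.93 to 7.77%, a 1.57-fold range. For Pdgfra the ranges were 13.4-fold and 1.69-fold, and for Cyr61 29.2-fold and 1.88-fold. The median range of the 27 genes was 13.1-fold in CPM and 2.94-fold relative to the collagens. In 24 of 27 the ratio had the narrower range, and Thbs1 (82.9-fold and 247-fold), Lox (14.9-fold and 18.1-fold) and Cav2 (9.22-fold and 9.43-fold) were the exceptions. The log2 correlation with the collagens over 20 libraries was above 0.9 for 20 of 27 genes, from 0.993 for Sparc and Cyr61 down to 0.350 for Thbs1; the libraries share pools and the values share a scaling. Over the 19 libraries without the one labelled untreated CD8 T, the counts were again 24 and 20 of 27 and the median ranges 13.1-fold and 2.94-fold. This comparison was chosen after the values were seen.

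**Figure D5:**
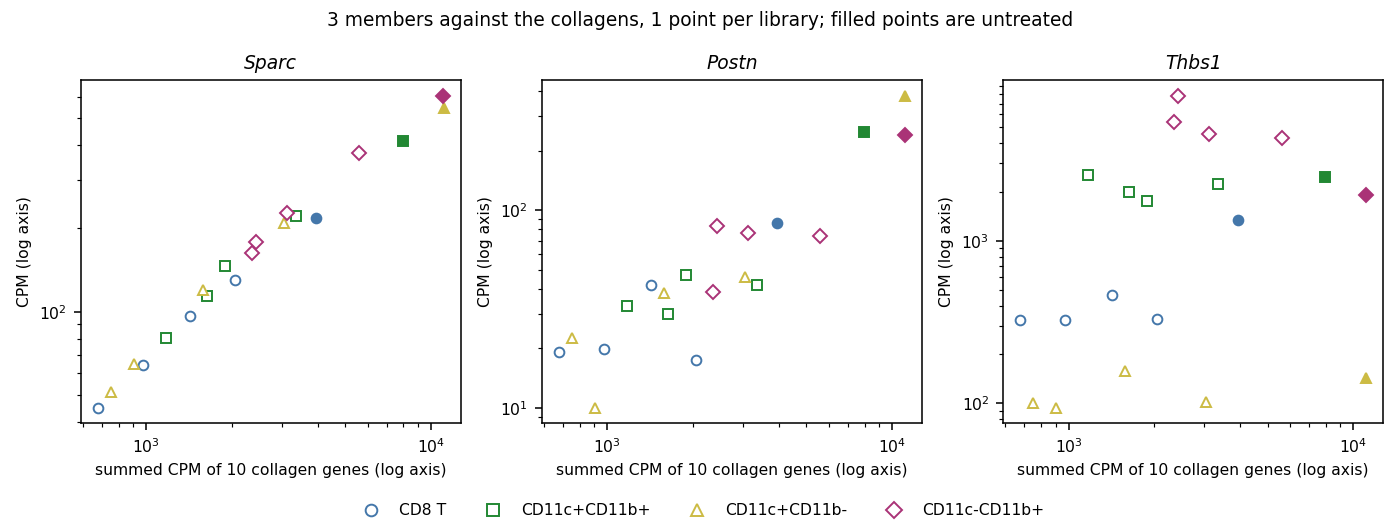
CPM of Sparc, Postn and Thbs1 (y axes) against the summed CPM of 10 collagen genes (x axes), both logarithmic, 1 point per library, with filled points for the untreated pool. Sparc lies along 1 line in all populations (r = 0.993), Postn scatters more (r = 0.907), and Thbs1 separates by population.

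Markers of other cells were measured in the same libraries. In the order CD8 T, CD11c+CD11b+, CD11c+CD11b- and CD11c-CD11b+, 10 endothelial markers summed to 94, 65.4, 137 and 61.9 CPM in the untreated libraries and to 35.9 to 49.6, 96.4 to 134, 216 to 262 and 63.5 to 116 in the irradiated ones. Their sum was lowest untreated in the 3 myeloid populations and was mostly Pecam1 and Kdr, with Pecam1 at 115 of 137 CPM in untreated CD11c+CD11b- cells. Single members went the other way: Esam was highest untreated in all 3 (1.40, 1.51 and 1.32 CPM), Emcn in CD11c+CD11b- and CD11c-CD11b+ cells (1.08 and 1.48) and Vwf in CD11c-CD11b+ cells (8.28). The endothelial genes Tek and Cldn5 stayed under 1 CPM, and Tie1, Egfl7, Esam and Emcn under 3. The 10 epithelial markers summed to 47, 147, 124 and 25.1 CPM in the untreated libraries and to 22.3 to 27.2, 53.7 to 98.7, 79.2 to 142 and 21.7 to 38.6 in the irradiated ones, most of it Cdh1. Krt8, Krt18, Krt19, Cldn4, Cldn7 and Elf3 were under 1 CPM in every library, and Epcam was at most 5.49. The 10 macrophage markers summed to 17828, 7075, 1203 and 5479 CPM in the untreated libraries and to 1130.0 to 2555, 10679 to 13506, 481 to 1034 and 4109 to 7794 in the irradiated ones. The 7 monocyte markers summed to 1067, 1863, 698 and 1442 CPM in the untreated libraries and to 1006 to 1415, 1776 to 2194, 1356 to 1670.0 and 2403 to 3415 in the irradiated ones. The 7 neutrophil markers summed to 273, 593, 152 and 972 CPM in the untreated libraries and to 89.95 to 124, 381 to 515, 74.2 to 100.05 and 723 to 3399 in the irradiated ones.

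Over all genes tested, edgeR called the pool term in 13.4%, and its unadjusted p was below 0.05 in 5127 of 21607. At that share, lists of 4 to 10 genes hold few calls. A count of 0 therefore does not show that a list does not follow the pool. In edgeR the pool term was called in 0 of 9 endothelial genes tested (1 at an unadjusted p below 0.05, 0 by DESeq2), 1 of 5 epithelial (Cdh1), 0 of 10 macrophage (0 and 0), 2 of 7 monocyte and 4 of 7 neutrophil genes. It was called in 1 of 8 conventional dendritic cell, 0 of 5 plasmacytoid dendritic cell (1 unadjusted, 1 by DESeq2), 0 of 9 CD8 T (2 and 2), 0 of 5 NK (0 and 0), 0 of 4 B cell (0 and 0) and 0 of 5 mast cell genes (0 and 0). Without the library labelled untreated CD8 T, and against 20.4% of all genes, edgeR called 1 endothelial, 0 epithelial, 1 macrophage, 1 plasmacytoid dendritic cell and 2 CD8 T genes. The other counts stayed at 2 monocyte, 4 neutrophil, 1 conventional dendritic cell and 0 NK, B and mast cell genes. The part of other cells in the levels of the 34 genes was not tested.

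Of 11290 other genes at 10 CPM in 2 libraries, those most like Postn by Pearson r of log2 CPM over 20 libraries were C1s1 (0.965), Col1a1 (0.953), Btf3l4 (0.942), Dpt (0.936), Lpar1 (0.929), Abi3bp (0.924), Lrrc17 (0.915), Acly (0.915), Id3 (0.914) and Apcdd1 (0.914). Those most like Fn1 were Emp1 (0.986), Rai14 (0.985), Zfyve9 (0.982), P4ha1 (0.975), Vat1 (0.973), Rusc2 (0.973), Nt5dc2 (0.972), Ptgs2 (0.972), Cd151 (0.970) and Pdpn (0.970). The 2 sets had no gene in common. Without the library labelled untreated CD8 T, 8 of the 10 stayed among the 10 nearest to Postn (not Apcdd1 and Id3) and 7 of the 10 among those nearest to Fn1 (not Cd151, Nt5dc2 and Pdpn). Within the list, Bgn was the closest to Postn (0.959) and Cav2 to Fn1 (0.960).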

How the data were processed

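Transcript counts from 20 libraries of sorted tumour leukocytes were used. Estimated counts per transcript, whole numbers with no fractions, were deposited by the authors; the submitters' processing notes name FastQC 0.11.8, edgeR 3.34.0, StringTie, HISAT2 and GRCm38. The sources used here give no version for StringTie or HISAT2. Of 142699 transcript rows, 141469 matched GENCODE M21 and were summed to 55260 genes; the 1230 others held at most 0.40% of a library's counts and were left out. Expected counts assigned to overlapping transcripts of 1 gene depend on the authors' counting, and strand handling is not given.

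Tests used edgeR 4.0.16 (quasi-likelihood, TMM, R 4.3.3) on all genes that passed filterByExpr with the design (minimum count 10, total 15), with Benjamini-Hochberg adjustment at 0.05. The pool and population terms were fitted together on 20 libraries, the myeloid contrasts on 15, irradiation on 5 and antibodies on 4 libraries of a population. SE is the log2 difference over the root of F. Variance shares used log2 CPM with a prior count of 2. The fits were also run on simulated counts with known changes, drawn independently for each library. That simulation has no effect shared within a pool, so it does not bear on the dependence between the 4 libraries of a pool. Alternatives were RLE scaling, no filter, DESeq2 1.42.0, prior counts of 0.5 and 10, and leaving out pools or libraries; the values without the library labelled untreated CD8 T for the further lists, the collagens and the nearest genes, and the myeloid shares of single genes and roles, were chosen after seeing the data. Descriptions and figures used Python 3.11.15, numpy 2.4.6, pandas 2.3.3 and matplotlib 3.10.9. A CPM floor is 3 counts of a library. Depth was 21.5 to 35.7 M counts a library.

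The 34 genes and all lists were chosen with earlier results of these data known. Genes at 10 CPM in 2 libraries were described by library, or by their untreated values and the irradiated range of each population. The others were given by their range or highest value. From each further list, up to 3 genes were named by the size of their pool difference, and 10 genes each by correlation with Postn and Fn1.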

Additional observations from a re-analysis of the deposited data

Results flagged for a closer look

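Thbs1, Lox and Cav2 moved in opposite directions in different populations under the same contrast, with every ratio of a population on 1 side. The difference between populations was not tested in any of these cases. Thbs1 in irradiated against untreated libraries had a mean log2 ratio of -1.91 in CD8 T cells (-2.04 to -1.53 over 4 ratios) and 1.47 in CD11c-CD11b+ cells (1.15 to 2.02). The CD8 T value rests on the library labelled untreated CD8 T, which held macrophage transcripts. With anti-PD-1 against without, within irradiated pools, Thbs1 had -0.26 in CD8 T cells (-0.51 to -0.01), with 2 ratios per population. It had -0.38 in CD11c+CD11b- (-0.64 to -0.12) and 0.55 in CD11c-CD11b+ cells (0.33 to 0.78).

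Lox, at 1.52 to 22.6 CPM, had 0.64 in CD11c+CD11b+ cells (0.11 to 1.03) and -1.57 in CD11c+CD11b- cells (-2.79 to -0.62) in irradiated against untreated libraries. With anti-PD-1 it had 0.76 in CD8 T (0.57 to 0.95), -0.28 in CD11c+CD11b+ (-0.43 to -0.12) and -1.77 in CD11c+CD11b- cells (-2.03 to -1.51). Cav2 with anti-SIRPa against without had 0.51 in CD8 T cells (0.24 to 0.77 over 2 ratios). In CD11c+CD11b+ cells it had 0.13 (0.03 to 0.24) and in CD11c-CD11b+ cells -0.19 (-0.32 to -0.07), so some ratios lay near 0.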

How the results depend on the processing

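Over all alternatives, 84 of 116 counts stayed within 1.5 times their value and 32 moved. Of 1561 values for single genes, 1353 kept their side of the threshold and 208 no longer passed it. Of the 208, 79 came without the filter on low counts. Among values with a direction, 0 changed it. Those of the pool and population terms have no direction and could not change it. RLE scaling moved no count and shifted libraries by at most 0.093 on the log2 scale. Without the filter, irradiation gave 4 genes in CD8 T cells and 0 in CD11c+CD11b+ and CD11c+CD11b- cells; anti-PD-1 gave 0 in CD8 T, CD11c+CD11b+ and CD11c+CD11b- cells, and anti-SIRPa 0 in CD11c+CD11b+ cells. For irradiation DESeq2 called 11 genes in CD8 T cells, 10 in CD11c+CD11b+, 23 in CD11c+CD11b- and 9 in CD11c-CD11b+ cells. It called 17 in CD11c-CD11b+ cells for anti-PD-1. For anti-SIRPa it called 3 in CD8 T cells, 8 in CD11c+CD11b+ and 13 in CD11c+CD11b- cells. Leaving out 1 pool gave 3 to 23 genes for CD11c+CD11b- against CD11c+CD11b+, 7 to 26 for CD11c-CD11b+ against CD11c+CD11b+, and, for irradiation, 3 to 14 in CD8 T, 0 to 20 in CD11c+CD11b+, 0 to 27 in CD11c+CD11b- and 0 to 22 in CD11c-CD11b+ cells. The count of genes with more pool than population variance was 14 to 26, with 14 for the 16 irradiated libraries alone. The counts of called genes in this section are given without the share over all genes in each setting. The causes were not tested. Leaving out the untreated pool for irradiation, or any pool for the antibodies, left no test and was not run. The population contrasts had the pool as a block, since the populations of a pool come from the same tumours; the treatment contrasts compare different tumours within 1 population and had no block. The treatment contrasts had 1 pool per treatment, and Myl9, Acta2 and Ctgf had few counts.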
